A study of Mus musculus with 12 samples.

Results

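The genes described here are 38 mouse genes of the unfolded protein response and the integrated stress response, chosen by symbol and read over 4 groups of cultured tumour cells. They were 38 of the 55421 Ensembl genes in the deposited count table. All 38 passed the filter on low counts and were among the 18108 genes tested. They were read in 4 lists: an ATF4 arm of 16 genes, 4 sensors and factors, an XBP1 arm of 7 co-chaperone and ER-associated degradation (ERAD) genes, and an ATF6 arm of 11 ER chaperones and related genes.

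The cells were derivatives of MOC2, a mouse oral squamous cell carcinoma line, grown in culture. MOC2-25 carried the label EV-proficient and MOC2-27 the label EV-deficient, for extracellular vesicles, which are membrane particles that cells shed. The study blocked vesicle release by genetic means, and the altered gene is not given in the sources used here. Each derivative was given either DMSO, the solvent control, or paclitaxel, a drug that stabilises microtubules, at 600 nM for 48 h, which the protocol used to induce senescence. Each of the 4 groups held 3 polyA RNA libraries, and nothing says that these came from separate cultures, so p-values measure the spread between these libraries, which may be technical. Since each label stands for 1 derivative, the label and the line cannot be told apart.

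The endoplasmic reticulum (ER) senses misfolded protein through PERK (encoded by Eif2ak3), IRE1α (Ern1) and ATF6. PERK and other kinases phosphorylate the initiation factor eIF2α, which lowers translation in general but favours that of ATF4, a transcription factor of amino acid supply and stress genes. IRE1α splices the Xbp1 mRNA and ATF6 is cut by proteases, and both products switch on chaperone and ERAD genes. Splicing, phosphorylation, cleavage and translation cannot be seen in counts per gene, so what follows is the amount of mRNA only.

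Library totals ran from 23263472 to 62955757 counts. In a principal component plot, the first component (54.1% of variance) separated paclitaxel from DMSO. The second (16.4%) set the EV-proficient DMSO and EV-deficient paclitaxel libraries on one side and the EV-deficient DMSO and EV-proficient paclitaxel libraries on the other. A sequence that the authors added to the table under the name dngfr fell the same way: it was at 5.73 to 12.2 CPM (counts scaled to a common library size, as in all values below) in the EV-proficient DMSO libraries and 9.63 to 12.4 in the EV-deficient paclitaxel libraries, against 1.89 to 2.54 and 2.47 to 3.76 in the 2 other groups. The labels do not say which derivative carries it, and whether the EV labels are exchanged within a treatment was not tested. EV-proficient and EV-deficient therefore mean below the libraries so labelled. Epithelial keratin and adhesion transcripts moved with the groups: their sum was 7212 to 8055 CPM in the DMSO libraries, 5315 to 5771 in EV-proficient and 4438 to 4728 in EV-deficient paclitaxel libraries, with Krt5 and Trp63 close to 0. Single markers did not all follow the sum. With paclitaxel in EV-proficient cells mean Epcam rose from 407 to 816 CPM and Itga6 from 615 to 706. Between EV-proficient and EV-deficient DMSO libraries the means differed for Krt14 (191 and 681 CPM) and Krt6a (42.0 and 318). The fibroblast marker list summed to 1.56 to 3.16 CPM under DMSO and 5.26 to 8.04 CPM under paclitaxel, and the leukocyte and endothelial lists to at most 2.02 and 4.26 CPM. The mitochondrial share of counts moved with the groups, from 0.550% to 0.729% under DMSO, 0.846% to 0.907% in EV-proficient and 1.07% to 1.45% in EV-deficient paclitaxel libraries, and the part of these shifts in the results was not tested.

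Letters of known response elements were looked up in the promoters of these genes, because the arms are defined by the factors that bind them. RefSeq promoters (GRCm38.p6, 250 bases before to 50 after the gene start) matched 35 of the 38 genes. The ER stress response element (ERSE), searched on both strands as CCAAT, any 9 bases and CCACG, was found in 8 of these 35 (22.9%), against 37 of 27025 genes (0.137%). It was present in 6 of 9 matched genes of the ATF6 arm, 2 of 7 of the XBP1 arm and none of 16 of the ATF4 arm. The 4 windows that follow are from genes whose levels are described further on, with the fixed letters of the element in capitals; a window written on the other strand of the element reads CGTGG first.
Hspa5, chr2:34772020-34772048 (+ strand): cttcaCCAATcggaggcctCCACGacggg
Calr, chr8:84847060-84847108 (- strand): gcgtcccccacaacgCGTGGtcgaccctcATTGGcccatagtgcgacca
Creld2, chr15:88819505-88819553 (+ strand): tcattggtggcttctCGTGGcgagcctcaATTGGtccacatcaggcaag
Dnajc3, chr14:118937812-118937860 (+ strand): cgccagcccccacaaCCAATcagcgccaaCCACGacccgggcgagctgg
The ERSE-II element, searched as ATTGG, any base and CCACG, was found in Herpud1 and Dnajb11, against 0.0444% of all genes, and the UPRE letters TGACGTGG in none of the 35, against 0.714%. The ERSE and UPRE letters can share the bases CCACG. A window of Herpud1 shows the shorter element.
Herpud1, chr8:94386362-94386402 (+ strand): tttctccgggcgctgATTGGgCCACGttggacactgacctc
The core of the amino acid response element bound by ATF4 with C/EBP partners, TGATGNAA, was found in 5 of 35 genes (14.3%), against 4.51% of all genes, and in 4 of the 16 genes of the ATF4 arm: Atf3, Chac1, Trib3 and Asns. Windows of 3 of them are shown with the fixed letters in capitals.
Atf3, chr1:191183421-191183458 (- strand): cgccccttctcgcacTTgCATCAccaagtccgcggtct
Chac1, chr2:119351034-119351071 (+ strand): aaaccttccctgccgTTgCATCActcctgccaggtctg
Asns, chr6:7693220-7693237 (- strand): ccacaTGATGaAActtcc
Such a match is a description of the letters and not a site of binding. Since the arms are defined by the factors that bind these elements, the shares against all genes are no test.

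Across all libraries the level per kilobase of exon (GENCODE M21, GRCm38) was highest for Calr and Hspa5. Calr was at 358 CPM per kb, Hspa5 at 269, Phgdh at 228, Pdia3 at 209, Canx at 188 and Atf4 at 150.4. The lowest were Cebpb at 3.29, Dnajb9 at 5.32, Eif2ak3 at 6.60 and Ern1 at 7.99 CPM per kb. Together the 38 genes took 0.914% ± 0.0119 of counts in EV-proficient DMSO libraries (SD, n = 3) and 0.974% ± 0.0164 in EV-deficient ones. Under paclitaxel the shares were 0.781% ± 0.00615 and 0.810% ± 0.0263.

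Paclitaxel changed the lists in different ways. In EV-proficient cells 11 of the 38 genes rose and 20 fell, 31 called at an adjusted p under 0.05, where 58.2% of all genes tested were called. In EV-deficient cells 7 rose and 27 fell, 34 called, against 62.9% of all genes. With upper-quartile scaling, which raised the median of all genes in that comparison from 0.07 to 0.26, 10 rose and 21 fell. Most of the ER chaperones fell under both labels. In the ATF4 arm 9 of 16 genes rose in EV-proficient and 12 of 16 fell in EV-deficient cells, and Atf5, Trib3, Chac1, Asns and Psph did both. The median log2 fold change of the 38 genes was -0.17 in EV-proficient and -0.39 in EV-deficient cells, and that of all genes tested 0.05 and 0.07. With upper-quartile scaling the medians of the 38 were -0.11 and -0.20, and those of all genes 0.11 and 0.26. These are bulk libraries, in which fewer cells of a kind and less RNA per cell cannot be told apart. No library enters both paclitaxel comparisons, and 18 of the 38 genes fell in both (47.4%), against 18.5% of all genes tested. A further 5 rose in both, against 18.9% of all genes.

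**Figure D1:**
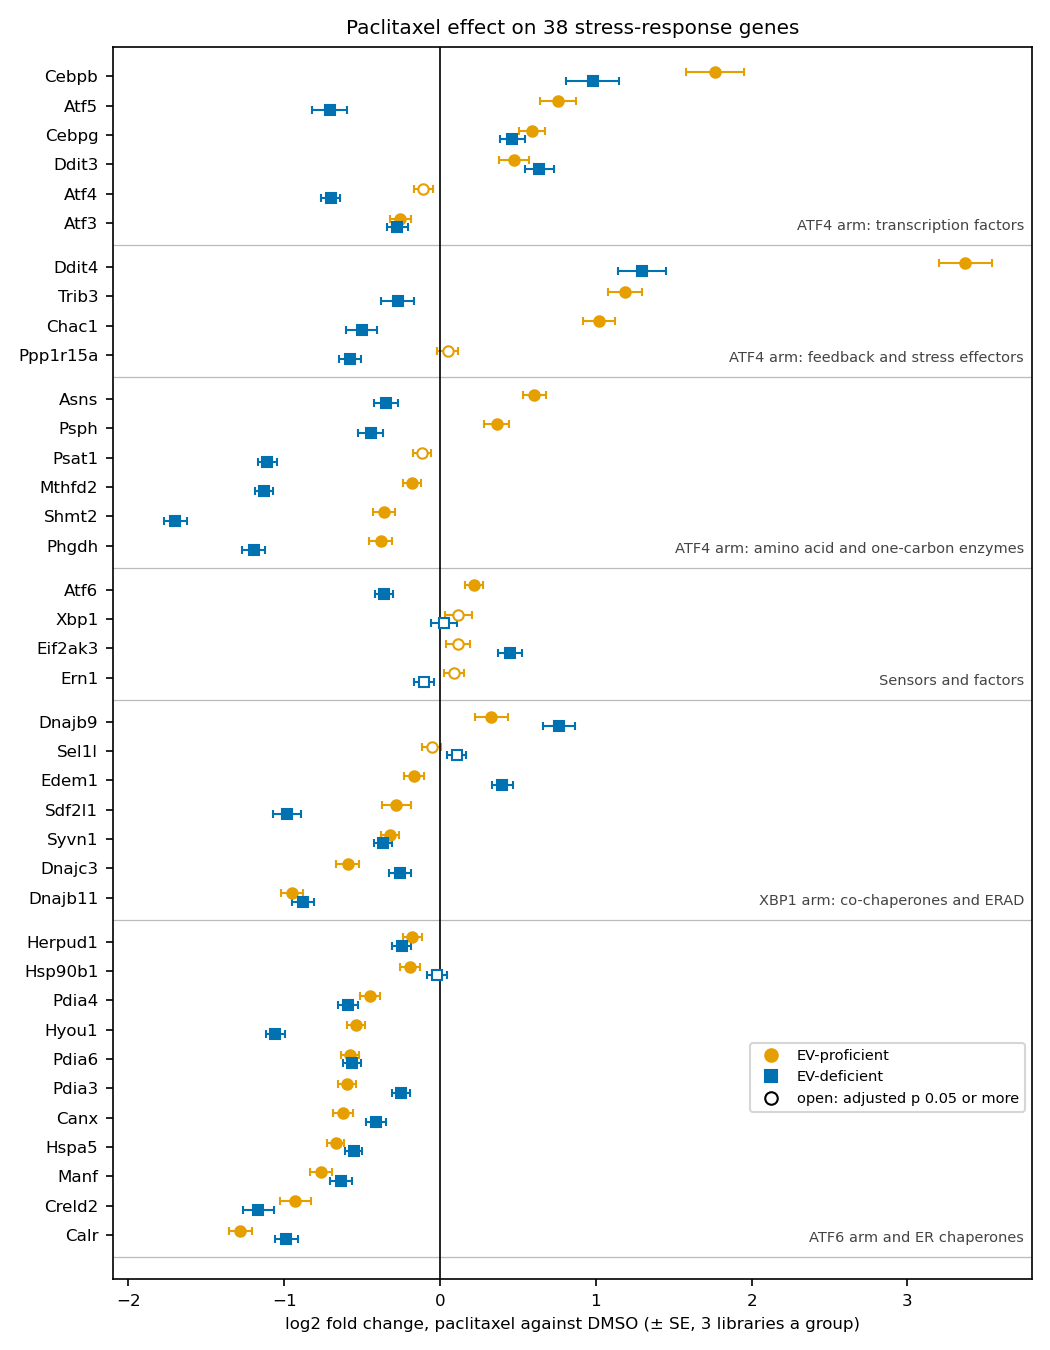
Log2 fold change of each of the 38 genes with paclitaxel against DMSO (x axis; points are the edgeR estimate, bars ± SE, 3 libraries per group; open symbols were not called), in EV-proficient and EV-deficient cells, grouped by list. The genes of the ATF6 arm lie left of 0 under both labels, from -1.28 to -0.02 (Hsp90b1 in EV-deficient cells, which turned to 0.17 with upper-quartile scaling), while in the ATF4 arm the points of the EV-proficient cells lie mostly right of those of the EV-deficient cells.

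The ER chaperones and ATF6-associated genes were the list with the most uniform change. All 11 fell in EV-proficient cells (median log2 fold change -0.60) and 10 of 11 in EV-deficient cells (median -0.56), where 27.1% and 30.5% of all genes tested fell. With upper-quartile scaling 9 of 11 fell in EV-proficient cells, without Hsp90b1 and Herpud1, and 8 of 11 in EV-deficient cells, where Hsp90b1 was called higher. Averaged over both labels, a contrast that stays the same if the EV labels are exchanged within a treatment, all 11 fell (median -0.57), or 9 to 11 over the alternatives, against 31.3% of all genes. With upper-quartile scaling Hsp90b1 turned to 0.018 and the average call of Herpud1 was lost (-0.09), and that of Hsp90b1 (-0.10) was also lost with either other filter on low counts and without EV-proficient DMSO replicate 2 or 3 or EV-deficient DMSO replicate 1 (-0.11 to -0.07). The separation was complete for every one of the 11 in EV-proficient cells: each paclitaxel library lay below each DMSO library. In EV-deficient cells this held for 10 of the 11. Groups did not overlap for 62.3% and 68.7% of all genes in these comparisons, in either direction.

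Calr (ENSMUSG00000003814, chr8:84841850-84846934), the calcium-binding lectin chaperone calreticulin of the ER lumen, fell most in EV-proficient cells. It was at 1384, 1399 and 1296 CPM in the EV-proficient and 1539, 1437 and 1433 in the EV-deficient DMSO libraries, and at 563, 567 and 546 and 765, 635 and 824 CPM under paclitaxel. The log2 fold change was -1.28 ± 0.07 (SE, adjusted p = 5.6e-12) in EV-proficient and -0.99 ± 0.07 (SE, adjusted p = 1.5e-10) in EV-deficient cells. Its membrane-bound relative Canx, calnexin, was at 1080.0, 1055 and 972 and 1081, 1025 and 997 CPM under DMSO in the same order of labels, and at 694, 651 and 673 and 818, 707 and 811 under paclitaxel. Canx fell by a smaller amount, with log2 fold changes of -0.62 ± 0.06 and -0.41 ± 0.06. Both genes had lower paclitaxel than DMSO libraries under either label with no overlap.

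Hspa5 (ENSMUSG00000026864, chr2:34771970-34777547), which encodes BiP, the main Hsp70 of the ER and the chaperone that binds the stress sensors, had 1303, 1305 and 1192 CPM in EV-proficient and 1525, 1462 and 1441 CPM in EV-deficient DMSO libraries. Under paclitaxel it had 809.5, 790.0 and 789 and 1016, 959 and 1040.1 CPM. The 4 groups did not overlap, and Hspa5 fell by a factor of 1.59 in EV-proficient and 1.47 in EV-deficient cells (log2 fold changes -0.67 ± 0.06 (SE, adjusted p = 1.5e-09) and -0.55 ± 0.06 (SE, adjusted p = 1.8e-08)). The ERSE window of Hspa5 printed above lies 70 to 42 bases before the RefSeq start and inside the gene as GENCODE M21, whose start is further upstream, draws it. Hsp90b1, the ER Hsp90 known as GRP94, had the smallest change of the list in EV-deficient cells. Its libraries ran from 605 to 661 CPM under DMSO and 492 to 662 under paclitaxel, with log2 fold changes of -0.19 ± 0.06 (SE, adjusted p = 0.014) and -0.02 ± 0.06 (SE, adjusted p = 0.83). With upper-quartile scaling the call in EV-proficient cells was lost (-0.13) and the value in EV-deficient cells turned to 0.17 with an adjusted p of 0.020.

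Hyou1, an Hsp70-like exchange factor for BiP, fell to different depths. It was at 403, 418 and 392 CPM in EV-proficient and 516, 499 and 492 CPM in EV-deficient DMSO libraries, then at 275, 289.5 and 269 and 233, 230.5 and 261 CPM with paclitaxel. Its log2 fold change was -0.54 ± 0.06 in EV-proficient and -1.06 ± 0.06 in EV-deficient cells, a difference of -0.52 ± 0.08 (SE, adjusted p = 3.8e-05). The EV-deficient libraries were thus the highest of the 4 groups without the drug and the lowest with it.

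The secreted ER factors Creld2 and Manf, both known to be induced by ER stress, also fell. Creld2 was at 74.8, 87.8 and 80.96 and 90.1, 85.97 and 83.5 CPM under DMSO, with the EV-proficient libraries first, and at 42.5, 45.6 and 39.6 and 40.1, 30.5 and 44.8 CPM under paclitaxel. Its log2 fold changes were -0.93 ± 0.10 and -1.17 ± 0.10. Manf was at 132, 143 and 138 and 137, 127 and 128 CPM under DMSO and at 80.7, 73.5 and 90.2 and 88.02, 80.7 and 84.03 CPM under paclitaxel. Manf fell with log2 fold changes of -0.76 ± 0.07 and -0.64 ± 0.07, and neither gene had overlapping groups in these comparisons. Herpud1, a membrane protein of the ERAD complex, lay between 79.5 to 92.4 CPM under DMSO and 70.4 to 76.97 CPM under paclitaxel. Its falls were small, -0.18 ± 0.06 (SE, adjusted p = 0.015) and -0.25 ± 0.06 (SE, adjusted p = 0.00095). Upper-quartile scaling ended both of these Herpud1 calls, at -0.12 and -0.06, and the former was also lost without EV-proficient DMSO replicate 2 (-0.17) and with no filter on low counts (-0.15).

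The protein disulfide isomerases, which form and rearrange disulfide bonds, fell together. Pdia3 was at 769, 789.5 and 721 CPM in EV-proficient and 774, 727 and 720.0 CPM in EV-deficient DMSO libraries, and at 518, 483 and 505 and 659, 597 and 611 CPM under paclitaxel. Pdia4 was at 185, 184 and 166 and 211, 202 and 199.7 CPM under DMSO and 134, 137 and 121 and 136, 135 and 135 CPM under paclitaxel. Pdia6 was at 448, 472 and 429 and 466, 433 and 433 CPM under DMSO and 302, 313 and 290.2 and 305, 296 and 299.6 CPM under paclitaxel. In each of the 3 genes every paclitaxel library was below every DMSO library of its label. Log2 fold changes in EV-proficient and EV-deficient cells were -0.60 ± 0.06 and -0.25 ± 0.06 for Pdia3, -0.45 ± 0.06 and -0.59 ± 0.06 for Pdia4, and -0.58 ± 0.06 and -0.56 ± 0.06 for Pdia6. The difference between labels passed the test for Pdia3 (0.35 ± 0.08 (SE, adjusted p = 0.0019)), whose call in EV-deficient cells was lost with upper-quartile scaling (-0.07). For Pdia6 the difference was 0.01 ± 0.08.

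**Figure D2:**
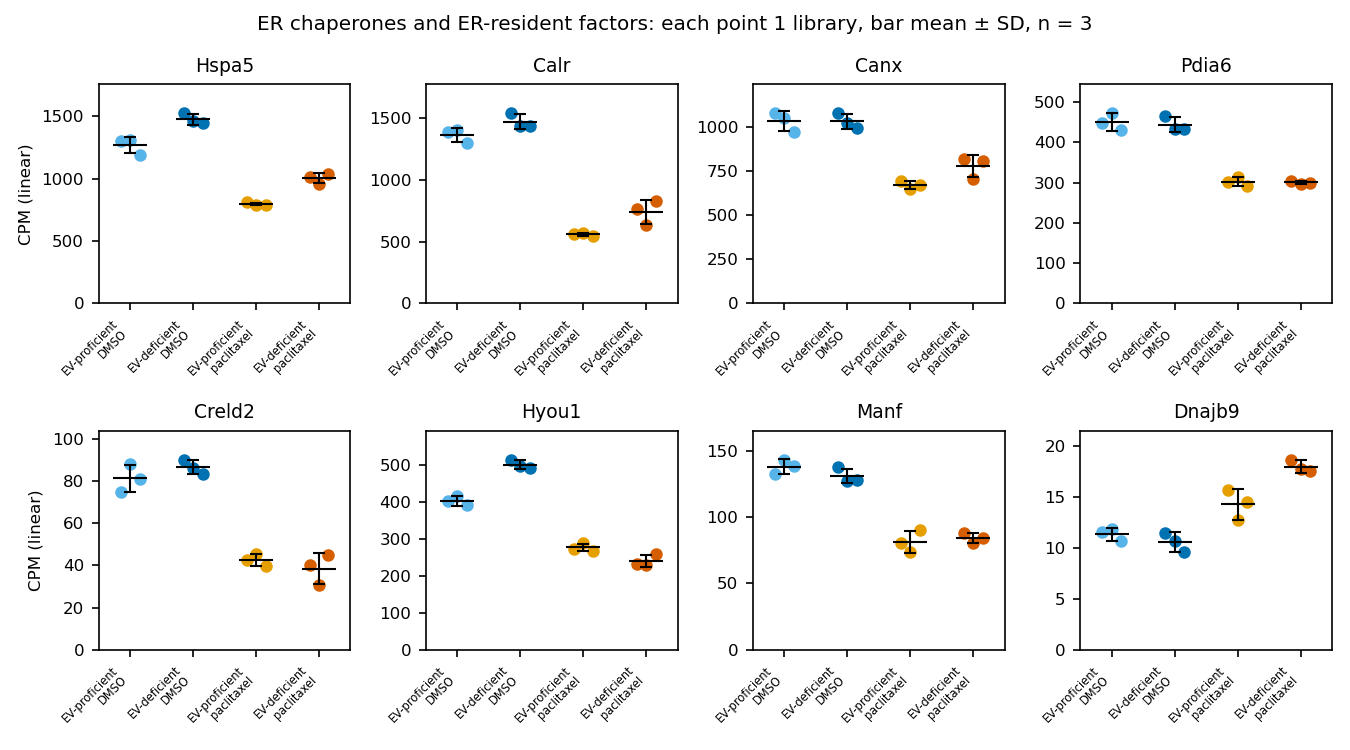
CPM of 7 genes of the ATF6 arm and Dnajb9 in each of the 12 libraries (linear axes from 0; points are libraries, bars the group mean ± SD, n = 3), by EV label and treatment. In Calr and Hspa5 the paclitaxel libraries of each label lie below its DMSO libraries, and in both genes the EV-deficient paclitaxel libraries lie above the EV-proficient ones.

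The ATF4 arm gave the sharpest contrast between the labels. Of its 16 genes 9 rose and 4 fell with paclitaxel in EV-proficient cells (median log2 fold change 0.42), while 4 rose and 12 fell in EV-deficient cells (median -0.47), or 4 and 9 with upper-quartile scaling (median -0.29). The shares over all genes tested were 31.1% and 27.1% in EV-proficient and 32.4% and 30.5% in EV-deficient cells. The difference between these 2 effects, the interaction, was called lower in 13 of the 16 genes and higher in none (median -0.88), where 23.8% of all genes tested were called lower and 16.9% higher. Averaged over both labels, 7 of the 16 rose and 7 fell (median -0.01, from -0.07 to 0.11 over the alternatives), against 37.1% and 31.3% of all genes. Asns, 1 of the 7 that rose, lost its average call under 10 of 19 alternatives. The split of this arm between labels thus rests on the EV labels, and the average does not.

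Atf4 (ENSMUSG00000042406, chr15:80255184-80257541), the factor that gives the arm its name, was at 366, 399 and 394 CPM in EV-proficient and 420.0, 412 and 420.1 CPM in EV-deficient DMSO libraries. Under paclitaxel it was at 343, 375 and 357 CPM and 251, 275 and 244 CPM. The 3 EV-deficient paclitaxel libraries were the lowest and did not overlap with any other group. Atf4 mRNA fell in EV-deficient cells, -0.70 ± 0.06 (SE, adjusted p = 1.4e-09). In EV-proficient cells the value was -0.11 ± 0.06 (SE, adjusted p = 0.13), and it passed the test without EV-proficient paclitaxel replicate 2 (-0.20) and without any 1 of the 3 EV-deficient paclitaxel libraries (-0.15 each).

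The factors downstream of ATF4 did not follow one course. Atf5, whose mRNA is also under eIF2α-dependent translation, was at 13.4, 15.3 and 18.4 CPM in EV-proficient and 21.8, 19.3 and 24.5 CPM in EV-deficient DMSO libraries. With paclitaxel it was at 26.1, 28.9 and 24.1 CPM and 12.7, 14.3 and 13.1 CPM. It rose in EV-proficient (0.76 ± 0.11 (SE, adjusted p = 7e-06)) and fell in EV-deficient cells (-0.71 ± 0.11 (SE, adjusted p = 1.2e-05)). Ddit3, which encodes CHOP, a pro-apoptotic factor of prolonged ER stress, was at 14.4, 16.2 and 15.2 and 16.9, 15.2 and 13.9 CPM under DMSO and at 19.2, 22.6 and 21.6 and 23.2, 25.2 and 23.1 CPM under paclitaxel. Ddit3 rose under both labels, by 0.47 ± 0.10 and 0.64 ± 0.09 on the log2 scale, and the difference between labels was 0.17 ± 0.13 (SE, adjusted p = 0.36).

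C/EBP factors pair with ATF4 on DNA. Cebpb had 1.73, 2.08 and 2.46 CPM in EV-proficient and 3.78, 3.46 and 3.46 CPM in EV-deficient DMSO libraries, and 7.57, 6.10 and 7.65 and 8.46, 7.12 and 5.59 CPM under paclitaxel. It was the least abundant of the 38 genes and rose with log2 fold changes of 1.76 ± 0.18 and 0.98 ± 0.17. Tmem189, on the opposite strand, overlaps 20.7% of its exon bases, and whether counting used strand is not given in the sources used here. Cebpg was at 41.5, 45.5 and 40.5 and 44.4, 42.2 and 44.4 CPM under DMSO and at 63.1, 58.8 and 70.6 and 62.3, 65.04 and 53.5 CPM under paclitaxel, with log2 fold changes of 0.59 ± 0.08 and 0.46 ± 0.08. Both C/EBP genes were higher in every paclitaxel library than in the DMSO libraries of the same label. Atf3, a stress-induced repressor and activator, went the other way and fell under both labels: from 71.5 to 81.6 CPM under DMSO to 60.02 to 66.5 CPM under paclitaxel, with log2 fold changes of -0.26 ± 0.07 (SE, adjusted p = 0.0027) and -0.27 ± 0.07 (SE, adjusted p = 0.0012). The value in EV-deficient cells was -0.09, no longer called, with upper-quartile scaling.

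Among the effectors, Ddit4 (REDD1, an inhibitor of mTORC1; ENSMUSG00000020108, chr10:59949669-59951834) rose most of the 38 genes. Its DMSO libraries had 7.41, 10.8 and 10.6 CPM with the EV-proficient and 21.04, 20.02 and 26.9 CPM with the EV-deficient label. Its paclitaxel libraries had 97.6, 104 and 96.4 CPM and 50.97, 73.9 and 42.4 CPM. The 4 groups stood apart without overlap, and the EV-deficient paclitaxel group was the most spread, 55.7 ± 16.3 CPM (SD, n = 3). Ddit4 rose 10.35-fold in EV-proficient cells, 3.37 ± 0.17 (SE, adjusted p = 8e-13), and 2.46-fold in EV-deficient cells, 1.30 ± 0.15 (SE, adjusted p = 1.9e-07). The difference between the labels, -2.07 ± 0.22 (SE, adjusted p = 1.8e-07), was the most negative interaction among the 38 genes.

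Trib3 and Chac1 moved in opposite directions under the 2 labels. Trib3, a pseudokinase that restrains ATF4 and AKT signalling, was at 23.5, 25.8 and 24.8 CPM in EV-proficient and 32.7, 30.6 and 33.1 CPM in EV-deficient DMSO libraries. Under paclitaxel it was at 52.8, 65.3 and 50.05 CPM and 27.8, 30.3 and 22.03 CPM. It rose in EV-proficient cells, 1.19 ± 0.11 (SE, adjusted p = 4.1e-09), while the fall in EV-deficient cells, -0.27 ± 0.10 (SE, adjusted p = 0.03), was not called without EV-deficient paclitaxel replicate 3 (-0.16), without EV-deficient DMSO replicate 1 or 3 (both -0.27), with a filter of 1 CPM in 3 libraries (-0.21) or with upper-quartile scaling (-0.09). Chac1, a glutathione-degrading enzyme, was at 15.7, 17.1 and 16.3 and 24.4, 21.8 and 26.4 CPM under DMSO and at 30.02, 38.1 and 31.5 and 17.4, 18.1 and 15.9 CPM under paclitaxel. It rose with a log2 fold change of 1.02 ± 0.10 (SE, adjusted p = 1.6e-08) in EV-proficient cells and fell with -0.50 ± 0.10 (SE, adjusted p = 0.00014) in EV-deficient cells. The interactions were -1.46 ± 0.15 for Trib3 and -1.52 ± 0.14 for Chac1. For both genes the EV-proficient paclitaxel libraries were above all 9 other libraries.

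Ppp1r15a encodes GADD34, the phosphatase subunit that reverses eIF2α phosphorylation. It was at 106, 117 and 110.4 CPM in EV-proficient and 145, 134 and 144 CPM in EV-deficient DMSO libraries, and at 108, 127 and 109.5 CPM and 90.2, 94.7 and 98.1 CPM under paclitaxel. In EV-proficient cells its groups overlapped (0.05 ± 0.07 (SE, adjusted p = 0.56)), and in EV-deficient cells it fell (-0.58 ± 0.07 (SE, adjusted p = 2e-07)).

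**Figure D3:**
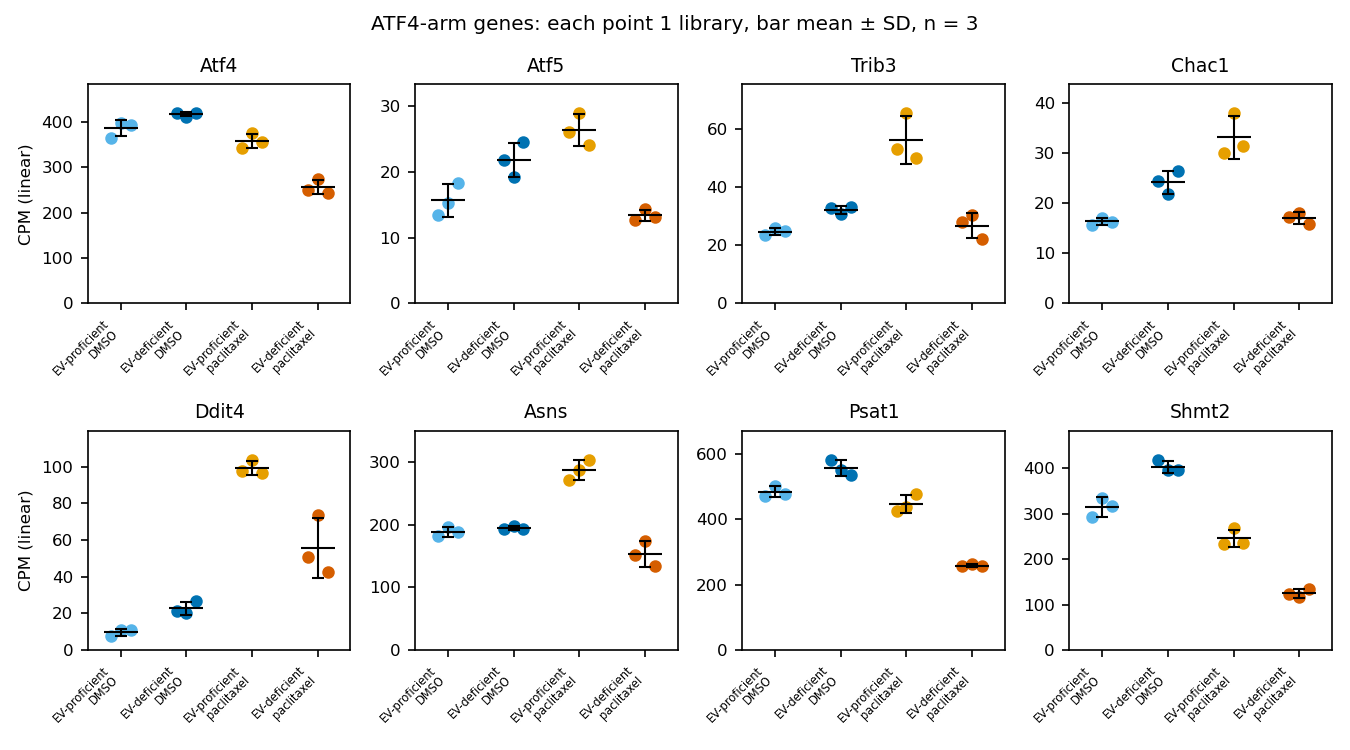
CPM of 8 ATF4-arm genes in each of the 12 libraries (linear axes from 0; points are libraries, bars the group mean ± SD, n = 3), by EV label and treatment. Ddit4 is higher in all 6 paclitaxel libraries than in the 6 DMSO libraries, Trib3, Chac1 and Asns are highest in the EV-proficient paclitaxel libraries, and Atf4, Psat1 and Shmt2 are lowest in the EV-deficient paclitaxel libraries.

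The 6 enzymes of amino acid and one-carbon supply all fell in EV-deficient cells (median log2 fold change -1.12), and in EV-proficient cells 2 rose and 3 fell (median -0.15, or -0.09 with upper-quartile scaling and -0.24 without EV-proficient paclitaxel replicate 3). Of all genes tested 30.5% fell in EV-deficient cells, and 31.1% rose and 27.1% fell in EV-proficient cells. All 6 interactions were called lower (median -0.95), against 23.8% of all genes. For all 6 the EV-deficient paclitaxel group had the lowest mean of the 4 groups. The share of all genes with their lowest mean in that group was not counted. Asns, which makes asparagine, was at 182, 197 and 188 CPM in EV-proficient and 193, 198 and 193 CPM in EV-deficient DMSO libraries, and at 271, 287 and 305 CPM and 151, 175 and 134 CPM under paclitaxel. It rose in EV-proficient cells (0.61 ± 0.07 (SE, adjusted p = 4.8e-07)) and fell in EV-deficient cells (-0.35 ± 0.07 (SE, adjusted p = 0.00036)). The latter call was lost with upper-quartile scaling (-0.16).

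The serine pathway runs from Phgdh through Psat1 to Psph. Phgdh was at 621, 735 and 668 CPM in EV-proficient and 784, 726 and 736 CPM in EV-deficient DMSO libraries, and at 481, 559 and 515 CPM and 313, 307 and 360.2 CPM under paclitaxel. Psat1 was at 471, 503 and 478 and 582, 551 and 536 CPM under DMSO and 425, 437 and 477 and 257, 262 and 256 CPM under paclitaxel. These first steps of the pathway were lowest in the 3 EV-deficient paclitaxel libraries, with log2 fold changes there of -1.20 ± 0.07 (SE, adjusted p = 1.1e-11) and -1.11 ± 0.06 (SE, adjusted p = 8.9e-13). In EV-proficient cells they were -0.38 ± 0.07 (SE, adjusted p = 0.00014) and -0.12 ± 0.06 (SE, adjusted p = 0.091), and the Psat1 value was called without EV-proficient paclitaxel replicate 2 (-0.16) or 3 (-0.21) or any 1 EV-deficient paclitaxel library (-0.16 to -0.17), and with median-of-ratios scaling or DESeq2 (both -0.14). Phgdh has processed copies elsewhere in the genome, so its counts depend on how shared reads were assigned, but the most counted of them, Gm7901, held 0.265% as many counts as Phgdh. Psph, the last step, was at 47.3, 55.6 and 55.3 and 58.1, 58.5 and 58.00 CPM under DMSO and 64.8, 71.1 and 67.6 and 44.7, 46.5 and 37.2 CPM under paclitaxel. Psph rose in EV-proficient cells (0.36 ± 0.08 (SE, adjusted p = 0.00063)) and fell in EV-deficient cells (-0.45 ± 0.08 (SE, adjusted p = 6.2e-05)).

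Shmt2 and Mthfd2 carry the one-carbon units of serine through mitochondrial folate. Shmt2 (ENSMUSG00000025403, chr10:127517123-127522444) was at 293, 336 and 317 CPM in EV-proficient and 419.6, 396 and 396 CPM in EV-deficient DMSO libraries, and at 234, 268 and 235 CPM and 123, 116 and 134 CPM under paclitaxel. It fell by a factor of 3.24 in EV-deficient cells, -1.70 ± 0.07 (SE, adjusted p = 3.6e-14), the lowest log2 fold change of the 38 genes. In EV-proficient cells it fell by a factor of 1.28, -0.36 ± 0.07 (SE, adjusted p = 0.00014). Mthfd2 was at 164, 178 and 171 and 194, 187 and 185 CPM under DMSO and 142, 150.2 and 160.5 and 87.6, 85.3 and 85.6 CPM under paclitaxel. Its 4 groups stood apart, with log2 fold changes of -0.18 ± 0.06 (SE, adjusted p = 0.012) and -1.13 ± 0.06 (SE, adjusted p = 8e-13). The EV-proficient call of Mthfd2 was lost without EV-proficient DMSO replicate 2 (-0.15), with no filter on low counts (-0.15) and with upper-quartile scaling (-0.12).

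Under paclitaxel 1 of the 4 sensors and factors rose and none fell in EV-proficient cells, where 31.1% of all genes tested rose and 27.1% fell. In EV-deficient cells 1 rose and 1 fell, against 32.4% and 30.5% of all genes. Xbp1, the target of IRE1α splicing, ran from 86.8 to 97.1 CPM under DMSO and 73.3 to 102 CPM under paclitaxel, with log2 fold changes of 0.12 ± 0.09 (SE, adjusted p = 0.25) and 0.03 ± 0.09 (SE, adjusted p = 0.81). The lowest of these, 73.3 CPM, was EV-deficient paclitaxel replicate 3, without which the EV-deficient value was 0.15 and was called, as it was with upper-quartile scaling (0.21). Ern1 lay between 56.6 to 71.9 CPM in all 12 libraries and was not called with paclitaxel (0.09 ± 0.06 (SE, adjusted p = 0.22) and -0.10 ± 0.06 (SE, adjusted p = 0.17)). With upper-quartile scaling Ern1 was called higher in EV-proficient cells (0.15), and its value in EV-deficient cells turned to 0.08, not called. Eif2ak3 lay between 33.2 to 38.4 CPM under DMSO and 35.3 to 49.9 CPM under paclitaxel. It was called higher in EV-deficient cells (0.45 ± 0.08 (SE, adjusted p = 3.6e-05)) and not in EV-proficient cells (0.12 ± 0.08).

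Atf6 alone among the sensors moved in opposite directions. It ran from 165 to 179 CPM in EV-proficient and 204 to 206 CPM in EV-deficient DMSO libraries, and from 194 to 209 CPM and 157 to 166 CPM under paclitaxel. Its log2 fold change was 0.22 ± 0.06 (SE, adjusted p = 0.0023) in EV-proficient and -0.36 ± 0.06 (SE, adjusted p = 9.7e-06) in EV-deficient cells, a difference of -0.58 ± 0.08 (SE, adjusted p = 5.5e-06). The EV-proficient call was lost without EV-proficient paclitaxel replicate 1 (0.14). The Atf6 difference between labels has the sign of the ATF4 arm's. In the ATF6 arm 7 of the 11 genes had a positive interaction value, against 47.7% of all genes tested. Of the 11, 2 were called higher and 1 lower, against 16.9% and 23.8% of all genes, so the calls higher were near the share over all genes. The number of genes of the ATF6 arm called higher ran from 1 to 6 over the alternatives.

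The XBP1 arm was mixed: 1 of 7 rose and 5 fell in EV-proficient cells, against 31.1% and 27.1% of all genes tested, and 2 rose and 4 fell in EV-deficient cells, against 32.4% and 30.5%. Dnajb9 (ERdj4), a BiP co-chaperone that represses IRE1α, rose under both labels. It was at 11.6, 11.8 and 10.7 CPM in EV-proficient and 11.5, 10.7 and 9.60 CPM in EV-deficient DMSO libraries, and at 15.7, 12.7 and 14.5 CPM and 18.7, 17.8 and 17.5 CPM under paclitaxel. Its log2 fold changes were 0.33 ± 0.11 (SE, adjusted p = 0.011) and 0.76 ± 0.10 (SE, adjusted p = 1.5e-06), and the former was not called without EV-proficient paclitaxel replicate 1 (0.21) or EV-proficient DMSO replicate 3 (0.28).

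The other BiP co-chaperones of the XBP1 arm fell. Dnajb11 (ERdj3) was at 137, 143 and 136 and 157, 148 and 147 CPM under DMSO, EV-proficient libraries first, and at 75.9, 72.5 and 66.7 and 81.05, 73.5 and 90.9 CPM under paclitaxel. Dnajc3 (p58IPK), which inhibits eIF2α kinases, was at 136, 133 and 123 and 127, 117 and 119.7 CPM under DMSO and 88.95, 78.01 and 92.9 and 107, 94.03 and 103 CPM under paclitaxel. Sdf2l1, a partner of BiP and Dnajb11, was at 27.6, 32.2 and 34.4 and 42.2, 41.03 and 44.8 CPM under DMSO and 25.9, 24.9 and 26.7 and 22.1, 18.9 and 23.7 CPM under paclitaxel. None of the 3 had overlapping groups in either paclitaxel comparison. Log2 fold changes in EV-proficient and EV-deficient cells were -0.95 ± 0.07 and -0.88 ± 0.07 for Dnajb11, -0.59 ± 0.07 and -0.26 ± 0.07 for Dnajc3, and -0.28 ± 0.09 and -0.98 ± 0.09 for Sdf2l1. Upper-quartile scaling ended the EV-deficient call of Dnajc3 (-0.07), and the EV-proficient call of Sdf2l1 was lost without EV-proficient DMSO replicate 3 (-0.21).

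The ERAD genes each took a course of their own. Sel1l, the scaffold of the HRD1 ligase complex, lay between 106 to 123 CPM in all libraries and was called in no comparison, with log2 fold changes of -0.05 in EV-proficient and 0.11 in EV-deficient cells. With upper-quartile scaling it was called higher in EV-deficient cells (0.29), in the interaction (0.28) and on average (0.15). With a filter of 1 CPM in 3 libraries it was called in EV-deficient cells (0.17) and in the interaction (0.21), the latter also without EV-proficient paclitaxel replicate 3 (0.24) or EV-deficient paclitaxel replicate 2 (0.22). With only the groups compared it was called lower between labels under DMSO (-0.14). Syvn1, the ligase HRD1 itself, fell from 75.7 to 86.8 CPM under DMSO to 60.2 to 67.2 CPM under paclitaxel, with log2 fold changes of -0.32 ± 0.06 and -0.37 ± 0.06. Edem1, which marks misfolded glycoproteins for disposal, lay between 80.8 to 115 CPM. It was called lower in EV-proficient cells (-0.17 ± 0.07 (SE, adjusted p = 0.038)) and higher in EV-deficient cells (0.40 ± 0.07 (SE, adjusted p = 1.9e-05)), and the former call was lost with upper-quartile scaling (-0.11), with no filter on low counts (-0.14), and without EV-proficient DMSO replicate 1 or 2 (-0.15 each) or any 1 EV-deficient DMSO library (-0.17 each).

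Next, the labels were compared within each treatment. Under DMSO 14 of the 38 genes were higher and 1 lower in EV-deficient than in EV-proficient cells, 15 called against 23% of all genes tested. Under paclitaxel 10 were higher and 15 lower, 25 called against 37.8%. Without EV-proficient paclitaxel replicate 2 this was 6 higher and 13 lower, without EV-deficient paclitaxel replicate 1 it was 6 and 14, and with upper-quartile scaling 13 and 13. The gene lower under DMSO was Edem1 (-0.23), a call lost with no filter on low counts (-0.19) and without EV-proficient DMSO replicate 1 or 2 or EV-deficient DMSO replicate 2 or 3 (-0.21 to -0.23). The groups did not overlap in 21 genes higher and 2 lower under DMSO (43.3% of all genes in either direction) and in 10 higher and 15 lower under paclitaxel (44.1%). In the ATF4 arm all 16 values were positive under DMSO (14 with upper-quartile scaling), 8 of them called, where 54.9% of all genes tested were positive and 12.4% called higher. Under paclitaxel 15 of the 16 were negative (12 with that scaling), 12 of them called lower, against 50.4% and 21.8% of all genes. Over 20 alternatives the sign under DMSO changed in 13 for Atf3, 13 for Ddit3 and 6 for Cebpg. The sign under paclitaxel changed in 8 for Cebpb, 7 for Atf3 and 1 for Cebpg. The median difference of the arm was 0.18 under DMSO and -0.73 under paclitaxel, against 0.04 and -0.00 over all genes. These 2 comparisons share no library. The sign differed between them for 27 of the 38 genes (71.1%) and for 12136 of the 18108 genes tested (67%), so the change of sign was not particular to these genes.

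Ddit4 had the largest of the DMSO differences, 1.24 ± 0.17 (SE, adjusted p = 9e-06), and was lower in EV-deficient than in EV-proficient cells under paclitaxel, -0.84 ± 0.15 (SE, adjusted p = 0.00013). Cebpb was higher under DMSO (0.78 ± 0.19 (SE, adjusted p = 0.0038)) and close under paclitaxel (-0.01 ± 0.17 (SE, adjusted p = 0.98)). For Atf5, Trib3, Chac1 and Shmt2 the differences were 0.48, 0.38, 0.56 and 0.36 under DMSO, all called higher. Under paclitaxel they were -0.98, -1.08, -0.96 and -0.98, all called lower. Asns was near 0 under DMSO (0.04 ± 0.07 (SE, adjusted p = 0.73)) and lower under paclitaxel (-0.91 ± 0.08 (SE, adjusted p = 7.7e-09)).

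In the ATF6 arm, 3 of the 11 genes were higher in EV-deficient cells under DMSO, against 12.4% of all genes tested, namely Hspa5 (0.22 ± 0.06 (SE, adjusted p = 0.0059)), Hyou1 (0.31 ± 0.06 (SE, adjusted p = 0.00043)) and Pdia4 (0.19 ± 0.06 (SE, adjusted p = 0.026)), the last of which stayed called without EV-proficient DMSO replicate 1 or 2 or EV-deficient DMSO replicate 3 and was lost without any of the 9 other libraries (0.15 to 0.21). Under paclitaxel 1 was lower and 5 were higher, against 21.8% and 16% of all genes. The higher ones were Calr (0.41 ± 0.07 (SE, adjusted p = 0.00014)), Hspa5 (0.34 ± 0.06 (SE, adjusted p = 6.9e-05)), Pdia3 (0.31 ± 0.06 (SE, adjusted p = 0.00027)), Canx (0.21 ± 0.06 (SE, adjusted p = 0.013)) and Hsp90b1 (0.21 ± 0.06 (SE, adjusted p = 0.014)). The Canx and Hsp90b1 calls were lost without EV-deficient paclitaxel replicate 1 (0.17 and 0.16), and that of Hsp90b1 also without EV-proficient paclitaxel replicate 2 (0.15). Hyou1 was lower (-0.20 ± 0.06 (SE, adjusted p = 0.01)), but not called with upper-quartile scaling (-0.11), with only the groups compared (-0.18) or without EV-proficient paclitaxel replicate 2 (-0.17). Of the 12 members called in both treatments Hspa5 alone kept its direction, and 91.7% of the 12 were called in opposite directions, close to the 96.0% of the 2834 such genes among all genes tested.

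**Figure D4:**
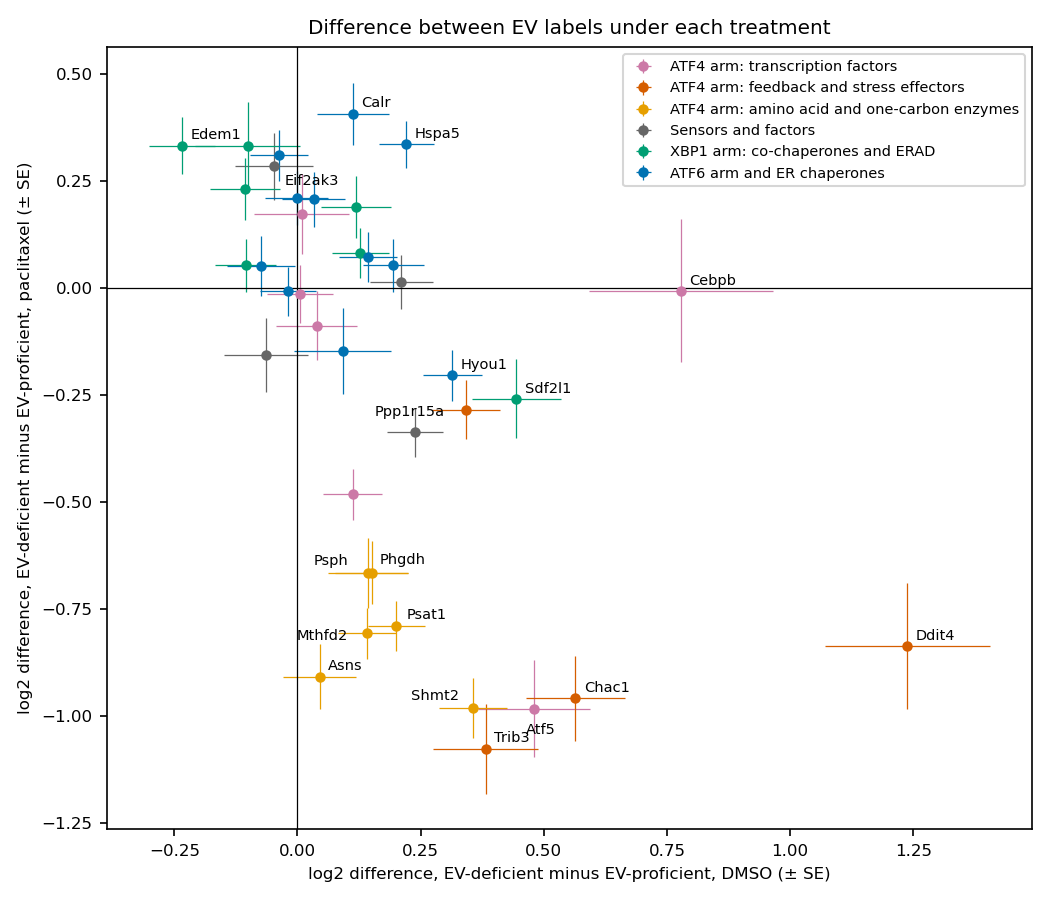
Log2 difference between EV-deficient and EV-proficient cells for each of the 38 genes under DMSO (x axis) and under paclitaxel (y axis); points are edgeR estimates, bars ± SE, 3 libraries per group, coloured by list. Genes of the ATF4 arm lie to the right of 0 and, but for Ddit3, below 0, while Hspa5 lies above 0 on both axes.

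The effect of paclitaxel itself differed between labels for 22 of the 38 genes, 6 higher and 16 lower in EV-deficient cells, where 40.7% of all genes tested were called. With upper-quartile scaling 11 were higher and 16 lower. With no filter on low counts 3 were higher and 17 lower, and 3 were higher without EV-proficient DMSO replicate 1 or 2 or EV-deficient DMSO replicate 2 or 3. Of the 16 lower calls 13 were ATF4-arm genes, and the others were Atf6, Sdf2l1 and Hyou1. The 6 higher calls were Eif2ak3, Dnajb9, Dnajc3, Edem1, Pdia3 and Calr, with values from 0.30 to 0.57. In 3 genes of the ATF4 arm the interaction was not called: Atf3 (-0.02 ± 0.09 (SE, adjusted p = 0.9)), Ddit3 and Cebpg (-0.13 ± 0.11 (SE, adjusted p = 0.41)). Cebpb was called at -0.78 ± 0.25 (SE, adjusted p = 0.016) but not without EV-proficient paclitaxel replicate 1 (-0.69) or EV-deficient paclitaxel replicate 3 (-0.60). Calr, Dnajb9 and Eif2ak3 were each not called without EV-proficient DMSO replicate 1 or 2 or EV-deficient DMSO replicate 2 or 3, with values of 0.26 to 0.27, 0.35 to 0.42 and 0.28 to 0.31, nor with no filter on low counts (0.23, 0.37 and 0.27).

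Averaged over both labels, 10 of the 38 genes rose and 22 fell with paclitaxel, 32 called against 68.4% of all genes tested. Over the alternatives 8 to 13 rose and 20 to 23 fell. The rises of Asns and Edem1 were not called under 10 and 11 of 19 alternatives. Ddit4 (2.33 ± 0.11 (SE, adjusted p = 1.2e-13)), Cebpb (1.37 ± 0.13 (SE, adjusted p = 3e-09)), Ddit3 (0.56 ± 0.07), Dnajb9 (0.55 ± 0.07) and Cebpg (0.53 ± 0.06) rose most. Calr (-1.14 ± 0.05 (SE, adjusted p = 4.7e-14)), Creld2 (-1.05 ± 0.07 (SE, adjusted p = 2.2e-11)), Shmt2 (-1.03 ± 0.05), Dnajb11 (-0.92 ± 0.05) and Hyou1 (-0.80 ± 0.04) fell most. For Atf5 the opposite effects under the 2 labels left an average of 0.02 ± 0.08 (SE, adjusted p = 0.8).

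Other genes of the same pathways were read from lists that hold none of the 38. In all genes tested 31.1% rose and 27.1% fell in EV-proficient cells, 32.4% rose and 30.5% fell in EV-deficient cells, and 16.9% of interactions were called higher and 23.8% lower. Of 24 further genes associated with ATF4, 16 rose and 4 fell in EV-proficient cells (median log2 fold change 0.69), and 4 rose and 16 fell in EV-deficient cells (median -0.49, or -0.31 with upper-quartile scaling). The interaction was called lower in 19 and higher in 2 of the 24. Aldh1l2, a mitochondrial folate enzyme, went from 6.57 to 52.9 CPM in EV-proficient cells (3.01 ± 0.09) and from 31.3 to 11.3 CPM in EV-deficient cells (-1.46 ± 0.09). Nupr1, a stress-induced chromatin protein, rose under both labels, by 2.95 ± 0.12 and 1.71 ± 0.11 on the log2 scale. Slc7a5 (-1.32 ± 0.07) and Slc7a1 (-1.17 ± 0.06) were the lowest of the 4 genes of this list that fell in EV-proficient cells. Of 12 cytosolic aminoacyl-tRNA synthetases, which charge tRNAs and several of which are ATF4 targets, 2 rose and 7 fell in EV-proficient cells. All 12 fell in EV-deficient cells (median -0.75), and all 12 interactions were called lower (median -0.66), or 11 to 12 in both cases over the alternatives.

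On the folding side, of 11 cytosolic heat shock genes 9 fell and none rose in EV-proficient cells (median -0.58), and 8 fell and 1 rose in EV-deficient cells (median -0.47, or -0.29 with upper-quartile scaling), with Hsph1, an Hsp110 exchange factor, at -1.47 ± 0.06 and -1.15 ± 0.06. Of 23 other ER folding genes 6 rose and 13 fell in EV-proficient and 7 rose and 9 fell in EV-deficient cells, so these went both ways, and 7 of their interactions were called higher and 7 lower. P4hb, a disulfide isomerase, fell under both labels (-1.14 ± 0.06 and -0.74 ± 0.06), and Sil1 rose under both (1.04 ± 0.08 and 0.50 ± 0.08). Of 8 mitochondrial chaperones and proteases 1 rose and 4 fell in EV-proficient cells, and all 8 fell in EV-deficient cells (medians -0.13 and -0.79, or -0.07 and -0.61 with upper-quartile scaling, with 7 to 8 falling in EV-deficient cells over the alternatives). All 8 interactions of that list were called lower (median -0.45), or 6 to 8 over the alternatives. Of the 10 genes for eIF2α kinases, phosphatases and eIF2B, 1 rose and 6 fell under each label. No gene of this list was called higher in EV-proficient cells without EV-proficient DMSO replicate 2, any 1 EV-proficient paclitaxel library or EV-deficient paclitaxel replicate 1 or 2, and 3 were called higher in EV-deficient cells with upper-quartile scaling. The gene that rose was Eif2ak2, the double-stranded RNA sensor PKR, with 0.21 ± 0.07 (SE, adjusted p = 0.018) in EV-proficient and 1.12 ± 0.07 (SE, adjusted p = 2.2e-11) in EV-deficient cells. Of 9 other ER stress sensor and processing genes tested, 5 rose and 2 fell in EV-proficient cells (median 0.32). In EV-deficient cells 3 rose and 5 fell (median -0.24), with 2 to 5 falling over the alternatives. Crebrf, of this list, rose by 2.37 ± 0.13 in EV-proficient and 2.79 ± 0.13 in EV-deficient cells. Of 16 other ERAD genes 2 rose and 9 fell in EV-proficient cells. In EV-deficient cells 3 rose and 6 fell, with 3 to 7 rising over the alternatives.

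**Figure D5:**
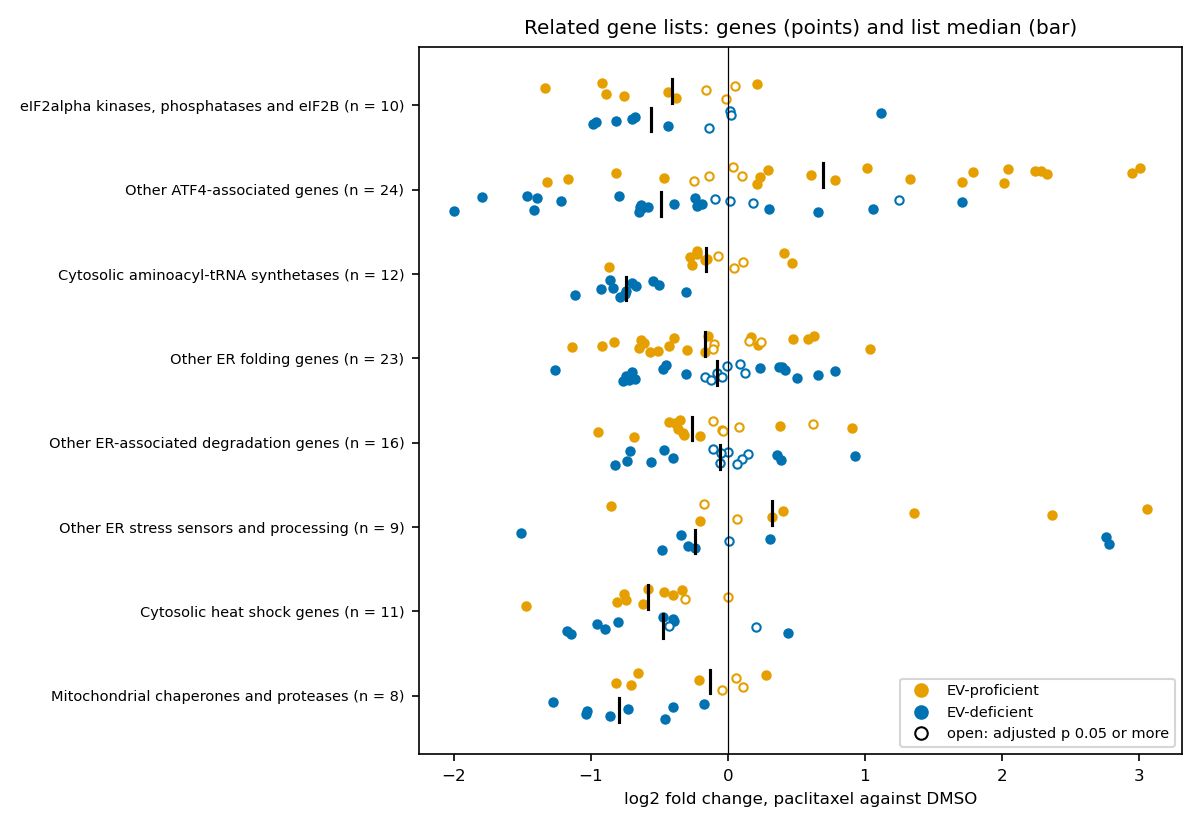
Log2 fold change with paclitaxel (x axis) of each gene in 8 related lists (points, open where not called) with the list median (bar), in EV-proficient and EV-deficient cells. The medians of the further ATF4-associated genes lie at 0.69 and -0.49, on both sides of 0, and the cytosolic heat shock genes at -0.58 and -0.47, on the same side.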

How the data were processed

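Whole-number counts per gene for 12 libraries were used as the authors deposited them. Per the labels' protocols, polyA RNA was made into stranded libraries with dUTP in the second strand. The submitters' processing notes name STAR 2.5.0a and GRCm38, and the counting program, the annotation and the use of strand are not given in the sources used here. The table has 55421 Ensembl genes, of which 35104 had a count, and 2 added sequences (gfp, 0 in all libraries, and dngfr) that stayed out of library sizes and tests. No further columns of other samples were present.

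Counts were tested in R 4.3.3 with edgeR 4.0.16: genes passing filterByExpr (minimum count 10), TMM scaling (factors 0.890 to 0.939 under DMSO, 1.05 to 1.15 under paclitaxel) and one quasi-likelihood fit of all 12 libraries with a mean per group. P-values were adjusted by Benjamini-Hochberg over the 18108 genes, at 0.05. SE is the log2 fold change divided by the root of F. CPM are per TMM-scaled library. The average over labels was added after seeing the data. A count of 0 in a library allows up to 3 counts, 0.0477 to 0.129 CPM, for counting error only. The code was tested on simulated data.

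Alternatives were other scalings, other filters, DESeq2 1.42.0, limma-voom (limma 3.58.1), a replicate block, only the groups compared, and each library left out. Replicate pairs differed by more than counting noise (chi-square per degree of freedom 4.49 to 31.3). Promoters came from RefSeq GRCm38.p6 and gene positions and exon lengths from GENCODE M21. The members and lists were chosen with earlier results of these data known. Library values are given for genes called with an absolute log2 value of at least 0.58 with paclitaxel or in the interaction, and, from each related list, at most the 2 highest and 2 lowest called genes were eligible to be named.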

Additional observations from a re-analysis of the deposited data

Results flagged for a closer look

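For 22 genes the effect of paclitaxel differed between the labels by the interaction test of edgeR, each value being the log2 effect in EV-deficient minus that in EV-proficient cells, where 40.7% of all genes tested were called. Among the transcription factors of the ATF4 arm these were Atf5 (-1.46), Cebpb (-0.78) and Atf4 (-0.59). Among its effectors they were Ddit4 (-2.07), Chac1 (-1.52), Trib3 (-1.46) and Ppp1r15a (-0.63). Among its enzymes they were Shmt2 (-1.34), Psat1 (-0.99), Asns (-0.95), Mthfd2 (-0.95), Phgdh (-0.82) and Psph (-0.81). The other negative values were those of Sdf2l1 (-0.70), Atf6 (-0.58) and Hyou1 (-0.52). Edem1 (0.57), Dnajb9 (0.43), Pdia3 (0.35), Dnajc3 (0.34), Eif2ak3 (0.33) and Calr (0.30) had positive ones.

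A signal outside the gene tests was that of the added dngfr sequence. Its mean was 10.9 CPM ± 1.42 (SD, n = 3) in EV-deficient paclitaxel and 2.15 ± 0.349 CPM in EV-deficient DMSO libraries, and 3.24 ± 0.683 CPM in EV-proficient paclitaxel and 8.99 ± 3.23 CPM in EV-proficient DMSO libraries. The 2 DMSO groups did not overlap, nor did the 2 paclitaxel groups, and the order of the labels was opposite in the 2 treatments. All 22 interactions rest on the EV labels, and whether the labels are exchanged within a treatment was not tested.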

How the results depend on the processing

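The total of called genes moved by less than 1.5 times in each comparison and alternative, but counts in one direction moved further: higher interactions from 6 to 3 up to 11, genes higher in EV-deficient cells under paclitaxel from 10 to 6, and genes lower there under DMSO from 1 to 0 up to 3. Leaving out 1 library at a time gave 28 to 33 of the 38 genes called with paclitaxel in EV-proficient cells, 33 to 34 in EV-deficient cells, 12 to 14 and 19 to 25 between labels under DMSO and paclitaxel, 19 to 25 for the interaction and 29 to 34 for the average. The other alternatives gave 28 to 32, 31 to 34, 15 to 17, 22 to 26, 20 to 27 and 30 to 33. Of 4484 values per gene and alternative, 4176 kept their direction and call, 130 lost a call and 52 gained one, and 123 small uncalled values changed sign. The 3 reversals all came with upper-quartile scaling, which moved the median of all genes from 0.05 to 0.11 in EV-proficient and from 0.07 to 0.26 in EV-deficient cells: Hsp90b1 in EV-deficient cells (0.17) and on average (0.018), and Ern1 on average (0.12). The replicate numbers did not pair the libraries: 18 same-numbered pairs had correlations of deviations from -0.0812 to 0.0970. With the replicate block 31, 34, 15, 24, 23 and 32 genes were called, against 31, 34, 15, 25, 22 and 32 without it. The call lost most often was that of Dnajb11 between labels under paclitaxel, under 14 alternatives. Each of these genes had at least 71 counts in every library, and the precision rests on 3 libraries per group. The effect of depth was not tested.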
